A study of Mus musculus with 8 samples.

Results

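The genes described here are those of the non-sterol branches of the mevalonate pathway, the enzymes that attach isoprenoids to proteins and build dolichol and the tail of ubiquinone. They were chosen by gene name, by a rule that uses no measured value but was written with earlier results of these data known. All 10 named genes were found among the 24942 genes in the deposited table of normalized read counts: Ggps1, Fnta, Fntb, Pggt1b, Rabggta, Rabggtb, Pdss1, Pdss2, Dhdds and Coq2. The RNA came from immunopanned retinal ganglion cells, whose axons form the optic nerve. NPC1-deficient mice gave 4 libraries and wildtype littermates another 4, all at postnatal day 8, and the strain field of every library names balb/cnctr-npc1m1n/j. The cells were held on an antibody-coated plate and lysed there, with no culture. NPC1 is a lysosomal membrane protein that passes cholesterol out of the lysosome, and the deficiency is carried by the whole animal, not by the ganglion cell alone. Nothing in the labels ties a library to 1 animal or to a pool. The p-values therefore cover the spread among libraries, an unknown part of which may be technical.

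In the mevalonate pathway, acetyl-CoA is turned into isoprenyl diphosphates and then into farnesyl diphosphate. Farnesyl diphosphate is the branch point: squalene synthase commits it to sterols, while the non-sterol branches use it, or the geranylgeranyl diphosphate made from it, to anchor small GTPases and lamins in membranes, to carry sugars for N-glycosylation as dolichol phosphate, and to build the side chain of ubiquinone, the mobile electron carrier of mitochondria. In many cell types the sterol enzymes and the enzymes above the branch point are transcribed under the control of SREBP2, which is activated when sterols in the endoplasmic reticulum fall. The question asked of these data was whether the non-sterol enzymes follow the sterol branch in NPC1-deficient ganglion cells.

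No difference between NPC1-deficient and wildtype cells was called for any of the 10 non-sterol genes, and each had a fold change between 0.944 and 1.05. In the limma test over 15386 genes 0 of 10 passed at an adjusted p of 0.05, against 16 genes (0.104%) over all genes tested. No member had an unadjusted limma p under 0.05, the smallest being 0.191 for Coq2. Over all genes tested, 1040 of 15386 had a limma p under 0.05. On the recovered reads edgeR (0.104% of all genes called) and DESeq2 (1.60%) also called 0 of 10. The median log2 fold change of the 10 genes was 0.018, beside 0.0050 over all genes tested. In the same libraries the 13 genes of the sterol branch were higher in NPC1-deficient cells by 0.33 on average on the log2 scale, and 9 of the 10 non-sterol genes had a 95% interval that ended below that value. The exception was Pggt1b, the least abundant of them. The mean of 0.33 was taken as fixed, although single NPC1-deficient libraries ran from 0.21 to 0.40. How many of all genes tested had such an interval was not counted. In the related test relative to the sterol branch, described below, 65.4% of all genes tested were lower.

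**Figure D1:**
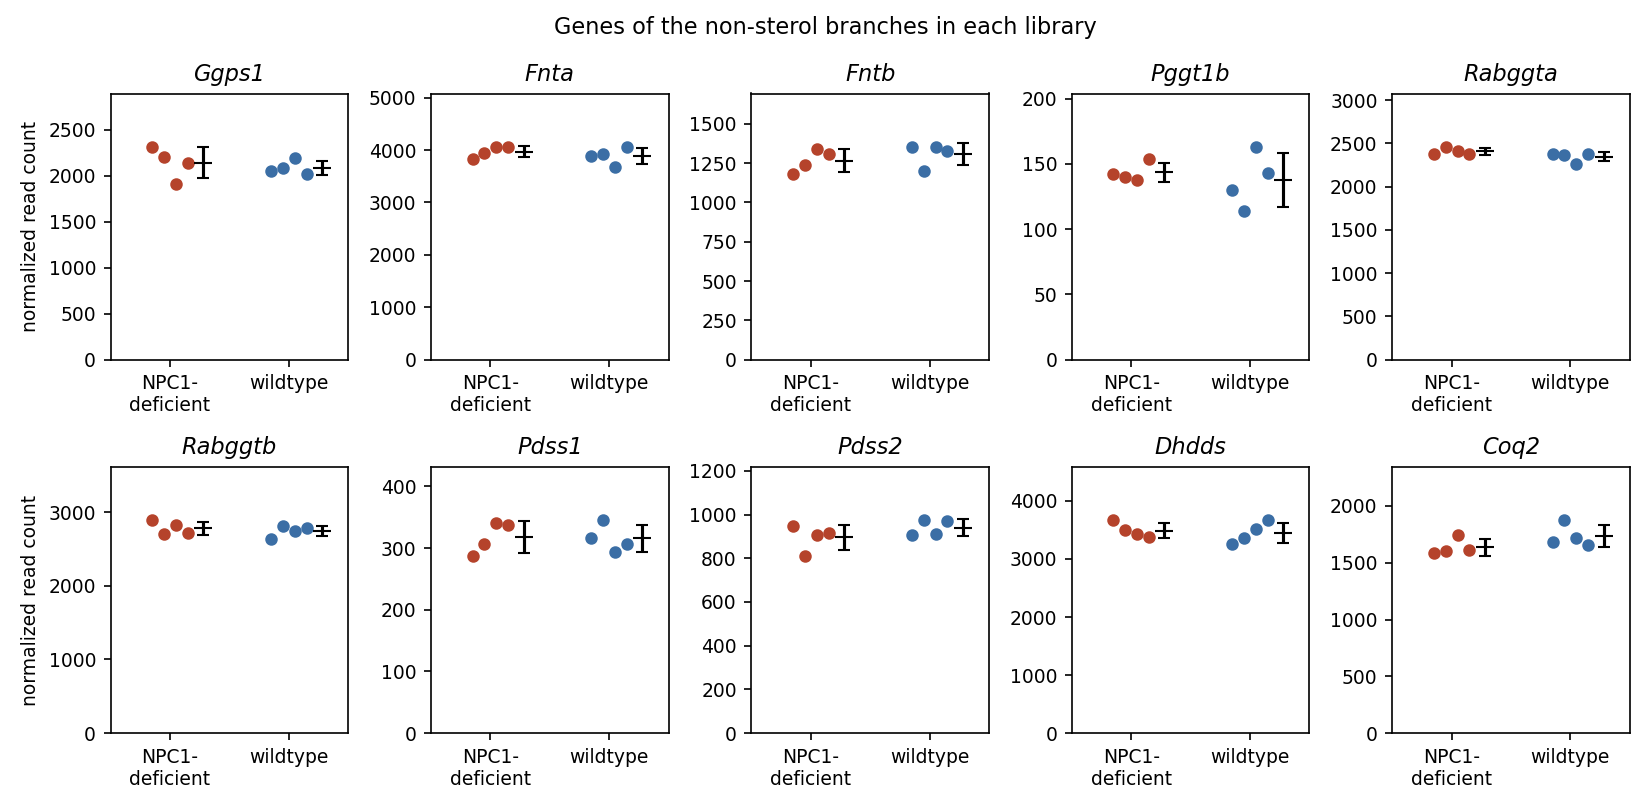
Normalized read counts of the 10 genes in each library, with NPC1-deficient libraries in red on the left and wildtype libraries in blue on the right of each panel, libraries 1 to 4 from left to right, and the mean and SD (n = 4) as a black bar. The groups overlap in 9 panels, and in Rabggta the lowest NPC1-deficient library stands just above the highest wildtype library.

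Across the series the libraries held 33030175 to 44050118 reads, and normalized values were those reads divided by 1 size factor per library. Libraries of a group were not equally alike in their reads. By chi-square per degree of freedom, NPC1-deficient 3 and 4 were the closest pair, at 4.535. The other NPC1-deficient pairs ran from 23.2 to 54.8, and the wildtype pairs from 8.16 to 28.7. Npc1 stood at 140, 70.0, 67.6 and 66.1 normalized reads in NPC1-deficient libraries 1 to 4, against 707, 754, 831 and 857 in wildtype libraries 1 to 4. It was 10.9% of the wildtype mean (log2 fold change -3.25, SE 0.20, limma adjusted p = 3.23e-05; exact two-sided permutation p = 0.0286, the smallest that 70 assignments allow). The grouping is that of titles and descriptions. Another label contradicts it by naming the first 2 libraries of each group wildtype and the last 2 homozygous. In every library the Npc1 level followed the titles and not this other label. The 10 ganglion cell markers summed to 262197 to 292475 normalized reads in NPC1-deficient and 251277 to 264793 in wildtype libraries, while every other retinal list summed to at most 16208. Markers of other cells summed to less in most NPC1-deficient libraries: the 10 microglial markers summed to 979.9 to 1966 against 1685 to 8303 in wildtype, and the 8 rod markers to 1444 to 2043 against 2487 to 6341. The 7 amacrine markers summed to 12194 to 13649 in NPC1-deficient and 13425 to 16208 in wildtype libraries, the 6 bipolar markers to 1522 to 1848 and 1792 to 2295, and the 6 Müller glia markers to 8378 to 9270 and 10601 to 11552. The median log2 fold change was -1.47 over the microglial markers, -1.12 over the rod, -1.45 over the amacrine, -0.87 over the bipolar and -0.46 over the Müller glia markers. The amacrine sum was mostly Pax6 (0.034) and the Müller glia sum mostly Glul (-0.11), and the only marker called was Apoe of the Müller list (-1.31, limma adjusted p = 0.0482). No marker was at 0 in every library, and fewer cells of a type cannot be told apart from less RNA per cell. Xist, which marks female cells, stood at 0 to 68.1 normalized reads in NPC1-deficient and 18.2 to 595 in wildtype libraries. The sum of 4 Y-linked genes was 2597 to 3788 in NPC1-deficient and 45.6 to 3093 in wildtype libraries. Wildtype 1 had 595 for Xist and 45.6 for the Y-linked sum, and wildtype 2 had 18.2 and 3093. Wildtype 3 had 238 and 1241, and wildtype 4 had 164 and 1508, so both kinds of marker were present in each. The wildtype libraries thus differed in sex make-up. Every NPC1-deficient library had less Xist and a higher Y-linked sum than wildtype 1, 3 and 4. Whether RNA of other cells or the mix of sexes bears on the non-sterol genes was not tested.

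Ggps1 makes geranylgeranyl diphosphate from farnesyl diphosphate and so opens the branch used by Rab proteins and other small GTPases (ENSMUSG00000021302, chromosome 13, 14050659 to 14063488, minus strand, mm10). It had 2318, 2202, 1916 and 2144 normalized reads in NPC1-deficient libraries 1 to 4, against 2057, 2081, 2195 and 2019 in wildtype libraries 1 to 4. The highest and the lowest value both belonged to NPC1-deficient libraries, so the groups overlapped throughout. Its log2 fold change came to 0.036 (SE 0.064, 95% interval -0.10 to 0.18, limma adjusted p = 0.995). Arid4b on the opposite strand shares 5.44% of its exonic length, and reads there cannot be assigned without strand. The enzyme that competes with Ggps1 for farnesyl diphosphate is squalene synthase, encoded by Fdft1, which was singled out here after its values were seen. Ctsb on the opposite strand shares 18.3% of the Fdft1 exonic length, where reads likewise cannot be assigned without strand. Whether such reads bear on the ratio of Fdft1 to Ggps1 was not tested. Per kilobase of exonic length, Fdft1 stood 5.91, 6.26, 7.98 and 7.08 times as high as Ggps1 in NPC1-deficient libraries 1 to 4, and 5.90, 5.89, 5.002 and 5.93 times in wildtype libraries 1 to 4. Apart from NPC1-deficient 1, which lay within the wildtype range, this ratio was higher in NPC1-deficient libraries, with means of 6.81 ± 0.919 in NPC1-deficient and 5.68 ± 0.452 in wildtype (SD, n = 4).

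The promoter windows of these genes, 250 bases before to 50 after the start site in RefSeq on GRCm38.p6, were searched on both strands. The search was part of the plan, as a description without a test. Windows were matched for 8 of the 10 genes, not for Fnta and Pggt1b. Ggps1, the branch-point enzyme, and Coq2, the member with the lowest fold change, are shown beside Nsdhl, a sterol dehydrogenase gene called higher in NPC1-deficient cells. Capitals mark matches to the NF-Y box CCAAT and the GC box GGGCGG, on either strand. The windows lie at chr13:14063439-14063738 on the minus strand for Ggps1, chr5:100674207-100674506 on the minus strand for Coq2 and chrX:72918271-72918570 on the plus strand for Nsdhl. The Coq2 window lies inside the annotated gene, which begins at 100675140 on that strand.
Ggps1: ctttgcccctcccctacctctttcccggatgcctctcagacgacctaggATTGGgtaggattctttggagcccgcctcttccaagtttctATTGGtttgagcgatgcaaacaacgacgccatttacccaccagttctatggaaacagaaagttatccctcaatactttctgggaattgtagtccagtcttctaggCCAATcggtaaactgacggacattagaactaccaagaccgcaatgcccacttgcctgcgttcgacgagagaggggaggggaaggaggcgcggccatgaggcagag
Coq2: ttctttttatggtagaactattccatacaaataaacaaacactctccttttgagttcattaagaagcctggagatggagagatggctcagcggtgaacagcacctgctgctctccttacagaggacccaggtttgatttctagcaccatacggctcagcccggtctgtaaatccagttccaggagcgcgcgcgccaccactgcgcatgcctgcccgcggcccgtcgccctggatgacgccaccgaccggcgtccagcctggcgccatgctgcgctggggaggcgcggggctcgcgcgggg
Nsdhl: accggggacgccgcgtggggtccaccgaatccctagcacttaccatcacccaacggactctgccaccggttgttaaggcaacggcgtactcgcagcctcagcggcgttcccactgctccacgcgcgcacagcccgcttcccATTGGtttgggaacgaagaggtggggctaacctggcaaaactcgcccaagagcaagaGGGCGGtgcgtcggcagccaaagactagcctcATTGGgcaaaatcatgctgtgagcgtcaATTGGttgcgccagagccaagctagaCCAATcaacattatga

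The sequences differ in these letters. The Ggps1 window holds 3 CCAAT boxes, at 201, 160 and 55 bases before the start site, the Coq2 window holds none, and the Nsdhl window holds 4. A CCAAT box was present for 3 of 8 non-sterol genes (37.5%), namely Ggps1, Rabggtb and Dhdds, against 10 of 10 sterol branch genes and 5 of 6 shared genes with a window. Over all 27025 genes with a window the share was 41.1%. A gene was counted if any of its windows matched. For Rabggtb the box lay in the window at chr3:153910918-153911217, inside the gene. Its window at the annotated start of the gene, chr3:153912917-153913216, held none. Dhcr7 of the sterol branch likewise had its boxes only in a window inside the gene, chr7:143829964-143830263. The Dhcr7 window at the annotated start, chr7:143822917-143823216, held none. Windows of the other genes were not sorted in this way. A GC box was present for 5 of 8 non-sterol genes, 10 of 10 sterol branch genes and 5 of 6 shared genes, and for 38.2% of all genes. The sterol regulatory element searched as TCACNCCAC matched no non-sterol window and no sterol branch window, and 1 shared gene, Hmgcs1, where the match read TCACCCCAC, at 137 bases before its start site. This element was present in 1.24% of all windows and for 1.44% of all genes with a window. Since it matched no sterol branch window either, this search does not tell the branches apart. The CCAAT and GC boxes do not overlap each other in letters, and a match describes the window without showing that a factor binds there.

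Protein prenylation in mammals is carried out by heterodimers. Both subunits of farnesyltransferase and of geranylgeranyl transferases I and II were measured. Fnta encodes the alpha subunit that farnesyltransferase and geranylgeranyl transferase I share (ENSMUSG00000015994, chromosome 8, 25998722 to 26015650, minus strand). It had 3828 to 4064 normalized reads in NPC1-deficient and 3672 to 4054 in wildtype libraries, with a log2 fold change of 0.032 (SE 0.049, limma adjusted p = 0.995). Fntb encodes the beta subunit that gives farnesyltransferase its substrate (ENSMUSG00000033373, chromosome 12, 76765589 to 76921412, plus strand). Its values were 1179, 1239, 1339 and 1308 in NPC1-deficient libraries 1 to 4 and 1351, 1203, 1355 and 1325 in wildtype libraries 1 to 4. NPC1-deficient 1 was the lowest library, the groups overlapped, and its log2 value differed by -0.047 (SE 0.064, limma adjusted p = 0.995). Of the Fntb exonic length 6.45% is shared with Churc1 on the same strand.

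Pggt1b encodes the beta subunit of geranylgeranyl transferase I, which modifies Rac and Rap proteins (ENSMUSG00000024477, chromosome 18, 46235351 to 46280993, minus strand). It had 142, 140, 137 and 154 normalized reads in NPC1-deficient libraries 1 to 4 and 130, 114, 163 and 143 in wildtype libraries 1 to 4. The wildtype libraries surrounded the NPC1-deficient ones on both sides. Its log2 fold change, 0.072 (SE 0.13, limma adjusted p = 0.995), had a 95% interval of -0.21 to 0.35 that takes in both 0 and the mean of the sterol branch. With only 113 to 175 reads per library, counting alone gives a coefficient of variation of 8.40%, and the spread between libraries was 5.05% in NPC1-deficient and 15.1% in wildtype.

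Rabggta and Rabggtb encode the subunits of geranylgeranyl transferase II, which places paired geranylgeranyl groups on Rab proteins of vesicle traffic. Rabggta (ENSMUSG00000040472, chromosome 14, 55715416 to 55722263, minus strand) had 2381, 2463, 2417 and 2381 normalized reads in NPC1-deficient libraries 1 to 4 and 2373, 2365, 2268 and 2375 in wildtype libraries 1 to 4. It was the only member whose groups did not overlap, where 4.27% of all genes tested did not, and the gap between the nearest libraries was small. Its means were 2410 ± 38.6 in NPC1-deficient and 2345 ± 51.6 in wildtype (SD, n = 4). Rabggta had a log2 fold change of 0.040 (SE 0.047, 95% interval -0.062 to 0.14, limma adjusted p = 0.995). Rabggtb (ENSMUSG00000038975, chromosome 3, 153907287 to 153913009, minus strand) had 2702 to 2890 normalized reads in NPC1-deficient and 2641 to 2807 in wildtype libraries, with a log2 fold change of 0.019 (SE 0.048, limma adjusted p = 0.995). Of its exonic length 6.24% coincides with the small nucleolar RNAs Snord45b and Snord45c.

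The ubiquinone branch begins with the polyprenyl diphosphate synthase formed by PDSS1 and PDSS2, which builds the side chain, and COQ2, which joins that chain to the ring precursor. Pdss1 (ENSMUSG00000026784, chromosome 2, 22895522 to 22940266, plus strand) had 287, 306, 341 and 337 normalized reads in NPC1-deficient libraries 1 to 4 and 317, 345, 294 and 307 in wildtype libraries 1 to 4. Its groups overlapped in full, with a log2 fold change of 0.0083 (SE 0.092, limma adjusted p = 0.995), and opposite-strand genes, Abi1 among them, share 9.44% of its exons. Pdss2 (ENSMUSG00000038240, chromosome 10, 43221486 to 43464882, plus strand) had 811 to 946 normalized reads in NPC1-deficient and 907 to 974 in wildtype libraries, with a log2 fold change of -0.073 (SE 0.067, limma adjusted p = 0.981). Coq2 (ENSMUSG00000029319, chromosome 5, 100654723 to 100675140, minus strand) had 1584, 1605, 1745 and 1612 normalized reads in NPC1-deficient libraries 1 to 4 and 1684, 1874, 1722 and 1654 in wildtype libraries 1 to 4. NPC1-deficient 3 stood above 3 of the wildtype libraries, while the other NPC1-deficient libraries stood below all 4 of them. Coq2 had the lowest fold change of the members, -0.082 on the log2 scale (SE 0.059, 95% interval -0.21 to 0.047, limma adjusted p = 0.942).

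Dhdds encodes the catalytic subunit of the cis-prenyltransferase that makes the long chain of dolichol, and mutations of the human gene cause a form of retinitis pigmentosa. In these cells Dhdds (ENSMUSG00000012117, chromosome 4, 133969028 to 134000918, minus strand) had 3667, 3494, 3422 and 3372 normalized reads in NPC1-deficient libraries 1 to 4 and 3266, 3357, 3513 and 3667 in wildtype libraries 1 to 4. The groups covered nearly the same range. Its fold change on the log2 scale stood at 0.017 (SE 0.053, 95% interval -0.099 to 0.13, limma adjusted p = 0.995).

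**Figure D2:**
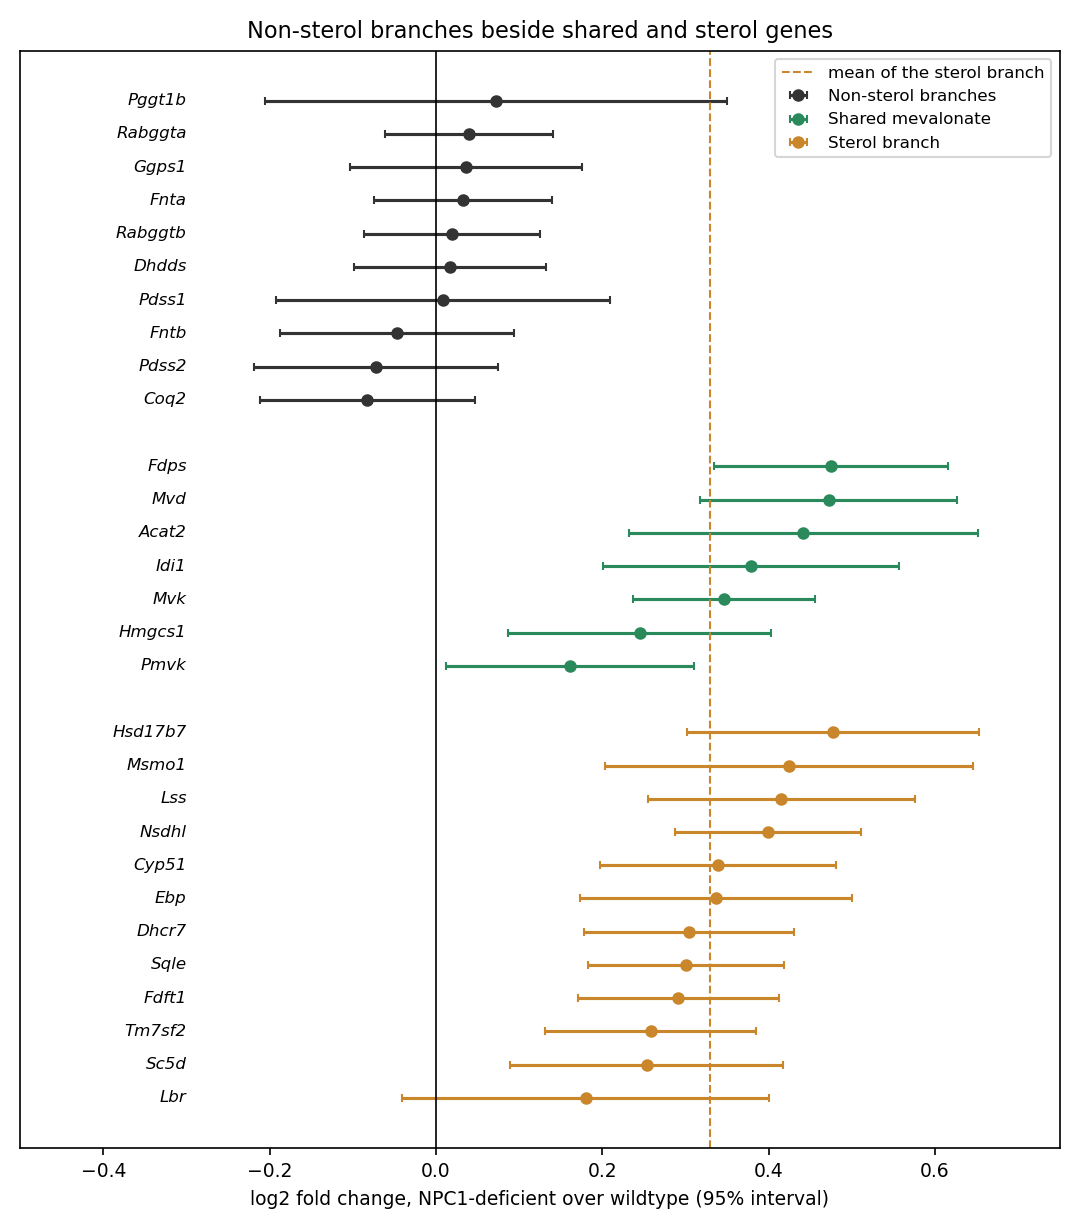
Log2 fold change of NPC1-deficient over wildtype with its 95% interval from limma, for the 10 non-sterol genes (black), genes shared by all branches (green) and genes of the sterol branch (orange). All 10 black intervals include 0, and all but that of Pggt1b end to the left of the dashed line, the mean of the sterol branch at 0.33. The line is drawn without its own spread, and the share of all genes with such an interval was not counted.

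The sterol branch and the shared genes above the branch point gave the yardstick. All 21 of these genes had a positive fold change, from 0.16 to 0.48, and 5 were called higher in NPC1-deficient cells over all genes tested. Among them were Fdps, which makes the farnesyl diphosphate that every branch draws on, Mvk and Mvd of the mevalonate steps, and Nsdhl of the sterol branch. Fdps had 9992 ± 885 normalized reads in NPC1-deficient and 7173 ± 335 in wildtype libraries (SD, n = 4), a log2 fold change of 0.48 (SE 0.065, limma adjusted p = 0.0273). Gm43738 on the same strand shares 26.7% of its exons. These calls stood near the threshold, and all 4 named were lost without NPC1-deficient 3, without wildtype 2 or without wildtype 3, when their adjusted p lay between 0.0532 and 0.122. Mvk and Mvd were also lost without NPC1-deficient 2. The same 4 were lost within libraries 1 and 2 alone. DESeq2 on the recovered reads called 6 of the 8 shared and 11 of the 13 sterol branch genes. Hsd17b7, a sterol reductase, with a log2 fold change of 0.48 (SE 0.081, limma adjusted p = 0.0607), and Lss, lanosterol synthase, with 0.41 (SE 0.074, limma adjusted p = 0.0679), missed the threshold. Both passed with the library set as a term (limma adjusted p = 0.00514 and 0.0219), within libraries 3 and 4, without NPC1-deficient 1, without wildtype 1 and by DESeq2. Hsd17b7 also passed with the replicate block (limma adjusted p = 0.0316), with no filter and without wildtype 4, and Lss with upper-quartile scaling.

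Library by library, the mean log2 level of the sterol branch stood 0.21, 0.32, 0.40 and 0.38 above the wildtype mean in NPC1-deficient libraries 1 to 4, while wildtype libraries stayed between -0.013 and 0.031. The mean of the 10 non-sterol genes stood at -0.0022, -0.024, 0.014 and 0.021 in NPC1-deficient libraries 1 to 4, and between -0.024 and 0.017 in wildtype libraries. The sterol branch thus separated the groups in every library, and the non-sterol mean lay in the same narrow band in both groups. Single non-sterol genes varied around that band by up to 0.26 on the log2 scale, Pggt1b in wildtype 3 being the farthest upward.

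**Figure D3:**
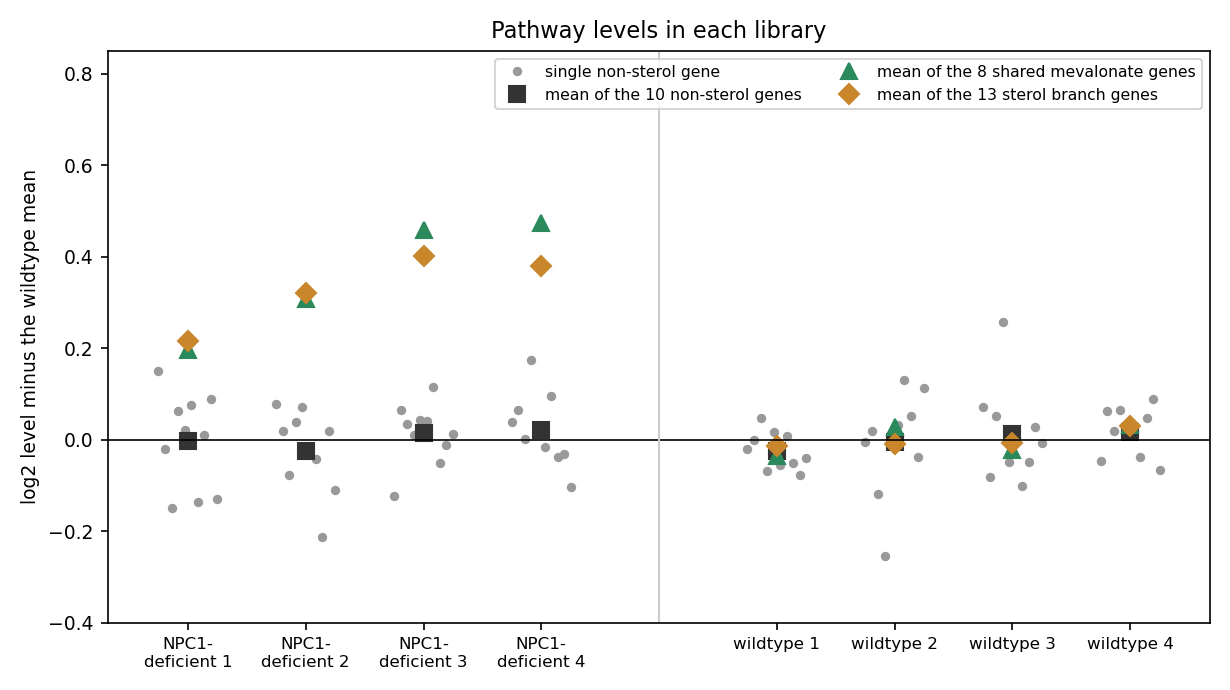
Mean log2 level of the non-sterol genes (black squares), the shared mevalonate genes (green triangles) and the sterol branch (orange diamonds) in each library, relative to the wildtype mean, with single non-sterol genes as grey points. Black squares lie between -0.024 and 0.021 in all 8 libraries, while orange diamonds reach 0.21 to 0.40 in NPC1-deficient libraries.

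Whether a gene departed from the sterol branch was tested by taking its log2 value relative to the mean of the 13 sterol genes in the same library. Relative to the sterol branch, 9 of the 10 non-sterol genes were lower in NPC1-deficient cells at a limma adjusted p of 0.05, the exception being Pggt1b. Over all genes tested 65.4% were lower by the same rule, so the 9 of 10 describes genes that did not move with the sterol branch and is not particular to the non-sterol enzymes. Coq2 had the lowest relative difference, -0.41 (SE 0.067, limma adjusted p = 0.00146), followed by Pdss2 at -0.40 and Fntb at -0.38. For Ggps1 the relative difference was -0.29 (SE 0.089, limma adjusted p = 0.0137). Pggt1b had a relative difference of -0.26 (SE 0.13, limma adjusted p = 0.101). The median of the 10 relative differences was -0.31, beside -0.32 over all genes tested.

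The library sets that the contradicting label field separates were compared next, since the sterol branch differed less between the groups in libraries 1 and 2 (median log2 fold change 0.27) than in libraries 3 and 4 (0.41). For the non-sterol genes the medians were 0.011 and -0.013. Of the 10 genes, 5 had opposite signs in the sets, a count that was not made over all genes. In 2 of the 10, Pdss1 and Dhdds, the groups (2 libraries each) did not overlap within either set, in opposite directions. Over all genes tested 10.3% did the same. For Pdss1 the log2 fold change was -0.16 in libraries 1 and 2, against 0.17 in the other set. For Dhdds it was 0.11 in libraries 1 and 2, against -0.079 in the other set. The limma interaction of genotype and library set called 0 of the 10 genes, against 0.078% of all genes tested. At an unadjusted p under 0.05, where 13.4% of all genes stood, it held 1 member, Dhdds, with a difference of -0.19 (limma adjusted p = 0.344), and Pdss1 had 0.33 (limma adjusted p = 0.392). Relative to the sterol branch, 5 of the 10 were lower within libraries 1 and 2 alone, beside 30.2% of all genes, and 9 within libraries 3 and 4 alone, beside 65.6%. In libraries 3 and 4 the 9 held Pggt1b (-0.45, limma adjusted p = 0.0404) and not Pdss1 (-0.21, limma adjusted p = 0.134).

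Levels between genes were compared per kilobase of exonic length. Fnta was the most abundant, with 1319 ± 37.8 normalized reads per kilobase in NPC1-deficient and 1290 ± 53.0 in wildtype libraries (SD, n = 4). Rabggtb and Dhdds followed, then Coq2 and Rabggta, whose ranges over the 8 libraries overlapped, then Ggps1, Fntb, Pdss2, Pdss1 and Pggt1b. Apart from Coq2 and Rabggta, no neighbours in this order overlapped in any library. Pggt1b had 12.2 ± 0.617 per kilobase in NPC1-deficient and 11.7 ± 1.77 in wildtype libraries, over an annotated exonic length of 11.7 kilobases.

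**Figure D4:**
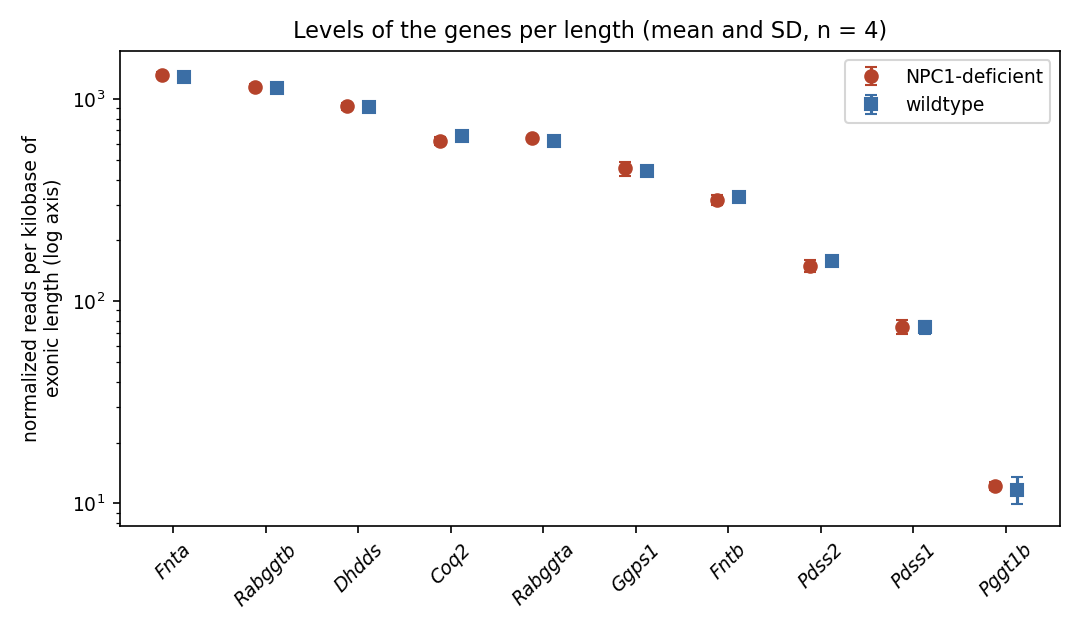
Mean and SD (n = 4) of normalized reads per kilobase of exonic length, on a log axis, for NPC1-deficient (red circles) and wildtype (blue squares) libraries. The order of the genes runs from Fnta to Pggt1b in wildtype, and Coq2 and Rabggta, whose ranges overlap, change places in NPC1-deficient libraries.

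The subunit genes of the heterodimers did not stand at equal levels per kilobase of annotated exonic length. That length was 3.01 kilobases for Fnta, 3.99 for Fntb and 11.7 for Pggt1b. Which transcript forms these cells use was not examined, so the ratios depend on the annotated lengths. The shared subunit gene Fnta stood 4.16 ± 0.120 times as high as Fntb per kilobase in NPC1-deficient and 3.94 ± 0.319 times in wildtype libraries (SD, n = 4). Fnta over Pggt1b was 108 ± 5.55 in NPC1-deficient and 112 ± 19.3 in wildtype libraries (SD, n = 4). Among the beta subunits, which compete for the product of Fnta, Fntb over Pggt1b was 26.1 ± 1.91 in NPC1-deficient and 28.4 ± 3.09 in wildtype libraries (SD, n = 4). Rabggta over Rabggtb was 0.557 ± 0.024 in NPC1-deficient and 0.549 ± 0.020 in wildtype, and Pdss1 over Pdss2 was 0.4999 ± 0.050 in NPC1-deficient and 0.471 ± 0.027 in wildtype (SD, n = 4). The groups overlapped in each of these ratios.

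No further gene of the non-sterol branches was called. Of 30 genes of prenyl processing, dolichol, ubiquinone and other isoprenoid use, 0 were called by limma, edgeR or DESeq2, and 0 had an unadjusted p under 0.05 in any of them. Over all 15386 genes tested, 1040 had such a p in limma, 1066 in edgeR and 985 in DESeq2. For the 30 genes the fold changes were small. Their median log2 fold change was 0.020, with 19 positive and 11 negative. Among 8 genes listed for prenyl processing, the smallest p values belonged to Icmt, Pcyox1, Chml and Rce1. Icmt, the prenylcysteine methyltransferase, stood at -0.068 and Pcyox1, a prenylcysteine oxidase, at 0.043. Chml, a Rab escort protein, stood at 0.18 and Rce1, the CaaX protease, at -0.037. Chml was low and variable, with 172 ± 71.7 normalized reads in NPC1-deficient and 146 ± 33.6 in wildtype libraries (SD, n = 4). Among 9 dolichol genes the smallest p values belonged to Dolk, the dolichol kinase, at 0.14 and Dpagt1 at 0.051. Next came Nus1, the partner subunit of DHDDS, at 0.031, and Dpm2 at 0.027. Dolk had 1385 ± 91.3 normalized reads in NPC1-deficient and 1258 ± 57.5 in wildtype libraries (SD, n = 4; SE of the log2 fold change 0.064, limma adjusted p = 0.754), the smallest adjusted p of the 30.

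Of 10 further ubiquinone genes, Coq4, a biosynthesis complex component, had a log2 fold change of 0.13 (SE 0.063, limma adjusted p = 0.761). Coq8a, listed as Adck3 in the table, stood at -0.22 (SE 0.15), Coq3, a methyltransferase, at 0.11 and Coq8b, listed as Adck4, at 0.083. Other isoprenoid users were Cox10, which makes the farnesylated heme of cytochrome oxidase, at 0.084, and Trit1, which modifies transfer RNA, at -0.0093. None of these passed. Of 15 genes for prenylated GTPases and lamins, the proteins that receive these lipids, 0 were called by limma, edgeR or DESeq2. Of the same 15, 0 had an unadjusted p under 0.05, where 1040 of all 15386 genes tested had one in limma. Rhoc stood at 0.12, Rap1b at 0.11, Nras at 0.14 and Rhoa at 0.060, and the median of the 15 was 0.038. All lists are described by counts and medians only, and reads per gene say nothing of the amount of isoprenoid or of prenylated protein. Here too, a gene not called is not shown to be unchanged.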

How the data were processed

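Ganglion cell RNA was sequenced from TruSeq libraries, a kit without strand information, per the labels' protocols. The submitters' processing notes name CASAVA 1.8.2, HTSeq 0.5.4p3, DESeq2 1.0.19 and mm10 without roles; the aligner is not given in the sources used here. As deposited, the signal per gene is its reads over a size factor of the library. All 199536 values (100%) were whole multiples of 1 read within 1e-06, so reads were recovered. Intervals cover the spread between libraries, and 0 would allow up to 3 reads.

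Genes with a mean of at least 10 were kept (15386). NPC1-deficient and wildtype libraries were compared on log2(value + 1) with limma 3.58.1 (R 4.3.3), using a trended prior variance, no covariate and Benjamini-Hochberg adjustment at 0.05. Fold changes are on that scale. The same fit was run relative to the sterol branch mean and with an interaction term, after a test on simulated data. Alternatives were DESeq2 1.42.0 and edgeR's quasi-likelihood test (version 4.0.16), as well as other pseudocounts, filters, scalings, moderation, blocks, library sets and leaving out each library. The same-numbered libraries of the groups did not deviate together. Positions and exonic lengths come from GENCODE M21 on the same build as mm10. The members and lists were chosen with earlier results of these data known. Named are all members, Npc1 and up to 4 genes of each list with the smallest p, a few of them not reported here, besides those marked as singled out. Protein sequences were not used here.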

Additional observations from a re-analysis of the deposited data

Results flagged for a closer look

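Rabggta in wildtype 3, at 2268 normalized reads, lay far below the other wildtype libraries, its gap to the nearest being 0.913 of the group's range, past the 95% limit of Dixon's ratio for 4 samples. Of 20 groups screened it was the only such value, and chance gives about 1 in 20. All NPC1-deficient libraries stood above the wildtype libraries for Rabggta. Leaving out wildtype 3, the lowest of them, could not change that.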

How the results depend on the processing

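None of the 10 non-sterol genes was called in any of 21 alternatives, where their log2 fold changes ran from -0.16 to 0.21 and the smallest adjusted p was 0.547. Relative to the sterol branch all 10 stayed negative in 20 alternatives, and 9 were called in each except libraries 1 and 2 alone, with 5 of 10 (4639 of all genes). Within libraries 3 and 4 Pggt1b was called and Pdss1 was not. The median of the 10 was -0.013 within libraries 3 and 4. No pairing of the libraries by number is stated, and same-numbered libraries correlated at -0.017 to -0.066. With the replicate block 34 genes of all tested were called instead of 16, and none of the 10. Over all genes, 10 were called at a minimum mean of 50, 99 with the library set as a term, 57 within libraries 1 and 2, 335 within libraries 3 and 4, and 246 by DESeq2. Leaving out single libraries gave 2 (without NPC1-deficient 3) to 144 (without wildtype 1).

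Some fold changes changed sign, none of them called. With quantile normalization they were -0.0032 for Rabggtb, -0.00017 for Dhdds and 0.028 for Trit1. Within libraries 1 and 2 they were -0.010 for Fnta, -0.16 for Pdss1, -0.076 for Dpagt1, -0.056 for Dpm2 and 0.041 for Icmt. Within libraries 3 and 4 they were -0.055 for Ggps1, -0.069 for Pggt1b, -0.079 for Dhdds, -0.0097 for Nus1, 0.051 for Trit1, -0.023 for Pcyox1, -0.11 for Chml and 0.063 for Rce1. Leaving out single libraries gave -0.0023 to 0.089 for Ggps1, -0.013 to 0.16 for Pggt1b, -0.027 to 0.056 for Pdss1 and -0.0094 to 0.046 for Dhdds. It gave -0.010 to 0.098 for Dpagt1, -0.0021 to 0.066 for Dpm2, -0.065 to 0.037 for Trit1, -0.075 to 0.33 for Chml and -0.081 to 0.0094 for Rce1. The cause of these changes was not tested. Pggt1b had the fewest reads of the 10, 113 to 175 per library.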
